A study of Mus musculus with 6 samples.

Results

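Myosin light chains are the small calmodulin-related subunits that clasp the lever arm of each myosin heavy chain, and this report follows 10 of their genes, Myl1, Myl4, Myl3, Mylpf, Myl2, Myl6b, Myl6, Myl9, Myl12a and Myl12b, in mouse fibrosarcoma cells. The genes were taken by symbol from the array annotation, each as its brightest probe set, and they are 10 of the 19505 named genes measured. They were chosen by earlier results of the shRras2-against-pLKO differences on these same arrays, so their differences are a description and no p-value is given for them. Total RNA of 6 samples was hybridised to 1 Affymetrix array each. All 6 samples were fibrosarcoma cells of C57BL/6 background with Rras2, which encodes a small GTPase related to RAS, in its Q72L form. In the 3 shRras2 samples (replicates 4 to 6) the cells had received a lentiviral shRNA vector against Rras2, number 89. In the 3 pLKO samples (replicates 1 to 3) they had received the empty vector. Only 1 shRNA against Rras2 was used, and the labels name no separate cultures within a group, so SEs and p-values rest on array-to-array spread that may be technical.

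Each myosin head carries an essential and a regulatory light chain. Essential chains stiffen the lever arm, while regulatory chains are phosphorylated by light chain kinases and ROCK, which switches on smooth muscle and non-muscle myosin, and dephosphorylated by a phosphatase that holds the targeting subunit Ppp1r12a. Striated muscle has its own forms, which replace one another between embryo, adult, fast, slow and heart muscle, while fibroblasts and most other cells use Myl6, Myl12a, Myl12b and, where contractile, Myl9. Here the essential chains are Myl1, Myl4, Myl3, Myl6b and Myl6, and the regulatory chains are Mylpf, Myl2, Myl9, Myl12a and Myl12b.

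Values are log2 signals from RMA (robust multi-array average), which quantile normalizes the arrays. Differences are shRras2 minus pLKO on the log2 scale with SEs from limma, fitted over all 19505 genes. A gene is called where limma's p, adjusted over all genes by the Benjamini-Hochberg method, lies under 0.05. In that fit 5.21% of all genes were called in either direction and 2.99% were called higher, and 19.1% (3733 genes) had an unadjusted p under 0.05. For 11.6% of genes, called or not, all 3 shRras2 arrays lay above all 3 pLKO arrays. The negative-control probe sets had a 95th percentile of 7.92, and signals under it are called background here, since the size of a difference is imprecise there. Array medians over genes lay between 7.22 and 7.28, and the median difference over all genes was -0.01. The targeted gene, Rras2, was at 9.09, 9.69 and 9.21 on shRras2 replicates 4, 5 and 6, against 10.67, 10.75 and 10.82 on pLKO replicates 1, 2 and 3. That is 31.8%, 48.1% and 34.6% of the pLKO signal, so replicate 5 kept the most Rras2 RNA of the shRras2 arrays (limma adjusted p = 0.00163; exact two-sided permutation p = 0.1, the smallest that 3 arrays against 3 allow). The fibrosarcoma label was set against 9 measured fibroblast markers. Vim, Col3a1, Pdgfrb and Col1a1 lay above the negative-control percentile in both groups, while Col1a2, Thy1, Dcn, Lum and Fap lay below it in both.

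Light chain RNA was higher with the shRNA in a small set of muscle forms and differed by at most 0.47 in the smooth and non-muscle forms. Of the 10 genes 5 were called higher (Myl1, Mylpf, Myl4, Myl6b and Myl12b), 0 were called lower and 5 were not called. All 10 differences were positive, with a median of 0.41 against -0.01 over all genes. The 3 shRras2 arrays lay above the 3 pLKO arrays for 7 of the 10. Since these differences helped to choose the genes, nothing is read from the counts beside 2.99% and 11.6% of all genes. By form, 3 of the 5 striated genes were called, with differences from 0.06 to 3.86 and a median of 1.80. Of the 4 smooth and non-muscle genes 1 was called, with differences from 0.04 to 0.47 and a median of 0.26. By position on the heavy chain, 3 of 5 essential and 2 of 5 regulatory genes were called.

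**Figure D1:**
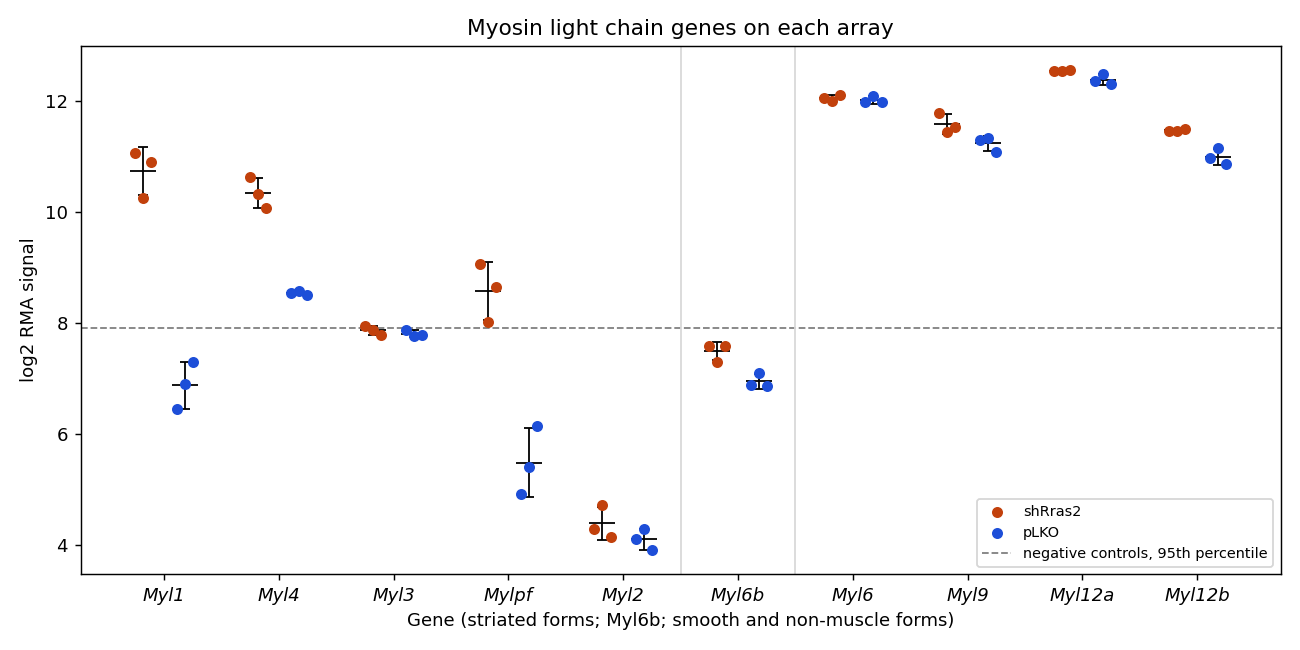
The log2 RMA signal of each myosin light chain gene is shown for every array, with shRras2 left of pLKO, horizontal ticks for group means and bars for ± SD (n = 3 each); the dashed line is the 95th percentile of the negative controls at 7.92. Myl1 and Mylpf cross that line between the groups, Myl4 lies above it in both, and Myl6, Myl9, Myl12a and Myl12b lie at 10.87 or above on every array.

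Myl1 encodes the essential light chain of fast skeletal muscle and is also made in developing muscle. Its signal was 11.08, 10.25 and 10.90 on shRras2 replicates 4, 5 and 6, against 6.45, 6.91 and 7.30 on pLKO replicates 1, 2 and 3. The groups lay far apart, with replicate 5 the lowest of the shRras2 arrays and pLKO replicate 1 the lowest of all. The difference was 3.86 ± 0.25 (SE, n = 3 each), a 14.5-fold higher signal. All pLKO values were below 7.92, so the fold is imprecise.

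Mylpf encodes the regulatory light chain of the same fast fibers. Its values were 9.07, 8.02 and 8.65 on the shRras2 arrays, in the same replicate order, against 4.92, 5.41 and 6.14 on the pLKO arrays. As for Myl1, replicate 5 was the lowest shRras2 array and pLKO replicate 3 the highest control, and the groups did not overlap. The difference was 3.09 ± 0.32, an 8.51-fold higher signal measured against controls at background. Of the 10 genes Mylpf had the widest spread between replicates, with SDs of 0.53 in shRras2 and 0.62 in pLKO cells.

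Myl4 encodes the essential light chain of the atrium, which skeletal muscle also makes before birth. It read 10.63, 10.34 and 10.08 on shRras2 replicates 4, 5 and 6, against 8.55, 8.58 and 8.51 on pLKO replicates 1, 2 and 3. The pLKO arrays were nearly identical (SD 0.03) and lay above the negative-control percentile, so Myl4 is the only one of the 3 genes with a difference above 1 that was measured over background in both groups. The difference was 1.80 ± 0.13, or 3.49-fold. The order among shRras2 arrays differed from that of Myl1 and Mylpf, with replicate 6 the lowest. These 3 genes were called and at least 2-fold higher, as were 0.584% of all genes.

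The other striated forms were not called. Myl2, the regulatory chain of the ventricle and of slow fibers, was 4.30, 4.73 and 4.16 on the shRras2 arrays, against 4.11, 4.30 and 3.91 on the pLKO arrays. These values are below the median of 5.02 of the negative controls, the groups overlapped, and the difference of 0.29 ± 0.15 was not called. Myl3, the essential chain of the same muscles, was 7.95, 7.88 and 7.79 on the shRras2 arrays, against 7.88, 7.77 and 7.78 on the pLKO arrays. The groups overlapped close to the negative-control percentile, with a difference of 0.06 ± 0.08 (95% interval -0.12 to 0.25). A pair of light chain genes outside the list was looked at beside them. Myl7, the regulatory chain of the atrium, averaged 6.24 ± 0.08 in shRras2 and 6.19 ± 0.07 in pLKO cells (SD, n = 3 each), with a difference of 0.04 ± 0.08 (limma adjusted p = 0.832). Myl10, a further regulatory chain gene, averaged 7.26 ± 0.08 in shRras2 and 7.03 ± 0.08 in pLKO cells, and its difference of 0.23 ± 0.08 did not pass (limma adjusted p = 0.179). Of the 2 atrial chains, then, Myl4 was called and Myl7 lay at background in both groups.

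The stretches just upstream of the starts of Myl1, Mylpf and Myl4 are printed because these 3 genes carry the large differences. They are the 250 bases before the gene start in RefSeq (GRCm38.p6), 5′ to 3′ on the gene's strand, at chr1:66945057-66945306 (minus strand) for Myl1, chr7:127211358-127211607 (plus strand) for Mylpf and chr11:104550413-104550662 (plus strand) for Myl4. Capitals mark matches to the motifs described next.
Myl1: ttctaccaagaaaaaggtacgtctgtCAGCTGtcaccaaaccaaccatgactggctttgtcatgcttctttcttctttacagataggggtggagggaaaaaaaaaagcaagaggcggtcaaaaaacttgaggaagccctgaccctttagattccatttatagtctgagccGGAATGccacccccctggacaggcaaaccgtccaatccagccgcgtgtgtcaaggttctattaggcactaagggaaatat
Mylpf: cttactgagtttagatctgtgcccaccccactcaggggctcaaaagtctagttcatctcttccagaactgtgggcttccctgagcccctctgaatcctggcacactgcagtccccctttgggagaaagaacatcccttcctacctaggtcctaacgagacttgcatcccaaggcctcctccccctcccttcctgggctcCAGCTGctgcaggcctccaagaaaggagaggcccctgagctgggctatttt
Myl4: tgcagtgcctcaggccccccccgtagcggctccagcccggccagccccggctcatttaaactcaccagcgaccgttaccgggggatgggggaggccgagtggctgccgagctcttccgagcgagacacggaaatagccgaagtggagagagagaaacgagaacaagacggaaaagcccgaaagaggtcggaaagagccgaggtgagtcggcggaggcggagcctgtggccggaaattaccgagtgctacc
All 10 genes matched the promoter table, with 12 starts in all. Motifs were searched by letters on both strands. The E-box was CANNTG, which basic helix-loop-helix factors such as MYOD bind, and its form CAGCTG is counted within CANNTG too. The others were the M-CAT element CATTCC of TEAD factors, the MEF2 box YTAWWWWTAR and the CArG box CCWWWWWWGG of SRF. In these patterns N is any base, Y is C or T, R is A or G, and W is A or T. Myl1 and Mylpf each had 1 E-box, in both cases of the form CAGCTG, 224 and 51 bases before the start at its first base. Myl1 also had an M-CAT match on the opposite strand, 80 bases before the start. The Myl4 window held none of the 5 motifs. Among the 32851 windows of the same length in the table, 66.2% held an E-box, 13.0% held CAGCTG and 12.6% an M-CAT match. CAGCTG also stood in windows of Myl2 and Myl12a, neither of which was called, and a relation of motifs to calls was not tested. A match is a string of letters and not a bound site, and other starts of these genes were not looked at.

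Myl6b encodes an essential chain of slow skeletal muscle that non-muscle cells make as well. Its values were 7.60, 7.31 and 7.60 on shRras2 replicates 4, 5 and 6, against 6.88, 7.11 and 6.86 on pLKO replicates 1, 2 and 3. Replicate 5 was again the lowest shRras2 array, and the groups did not overlap. The gene was called with a difference of 0.55 ± 0.11, but all 6 values lay under the negative-control percentile. Its neighbour by sequence family, Myl6, lies on the same chromosome 10 and is the common essential chain of smooth muscle and non-muscle myosin. Myl6 was 12.07, 12.01 and 12.12 on the shRras2 arrays, against 11.98, 12.10 and 12.00 on the pLKO arrays. Its groups overlapped and the difference was 0.04 ± 0.08 (95% interval -0.14 to 0.21), the smallest of the 10.

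The remaining regulatory chains are the substrates of light chain kinase and ROCK in fibroblasts and smooth muscle. Myl12b was 11.46, 11.47 and 11.50 on the shRras2 arrays, against 10.99, 11.16 and 10.87 on the pLKO arrays. The shRras2 arrays were nearly identical (SD 0.02) and lay above every control, and the gene was called with a difference of 0.47 ± 0.09, or 1.39-fold. Myl12a, its close relative on chromosome 17, was 12.54, 12.55 and 12.57 on the shRras2 arrays, against 12.37, 12.50 and 12.31 on the pLKO arrays. It too did not overlap, but its difference of 0.16 ± 0.08 was not called. Their coding sequences are very alike, and the probe sequences were not used here, so signal shared between the 2 probe sets cannot be told apart. Myl9, the smooth muscle form, was 11.78, 11.44 and 11.55 on the shRras2 arrays, against 11.31, 11.33 and 11.08 on the pLKO arrays. Its groups did not overlap, with shRras2 replicate 5 close to the highest control, and the difference of 0.35 ± 0.11 was not called.

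**Figure D2:**
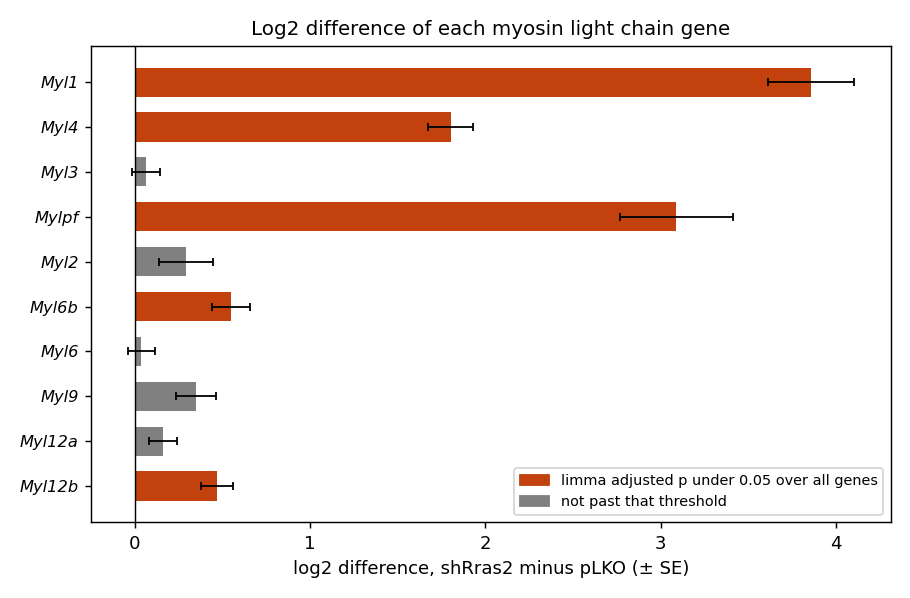
Bars give the log2 difference, shRras2 minus pLKO, of each myosin light chain gene, with lines for ± SE from limma (3 arrays a group) and colour for the call over all genes. Myl1, Mylpf and Myl4 reach 3.86, 3.09 and 1.80, and the other 7 stay at or below 0.55.

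The upstream windows of Myl9 and of 1 of the 2 listed starts of Myl6 are shown because each held a CArG box, an element found in 1.47% of all windows. They lie at chr2:156775214-156775463 (plus strand) for Myl9 and chr10:128493010-128493259 (minus strand) for Myl6.
Myl9: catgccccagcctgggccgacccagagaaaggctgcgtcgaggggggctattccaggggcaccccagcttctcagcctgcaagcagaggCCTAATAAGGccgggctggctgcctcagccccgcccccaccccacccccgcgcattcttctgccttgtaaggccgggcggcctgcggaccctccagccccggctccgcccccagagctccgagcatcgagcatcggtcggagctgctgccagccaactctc
Myl6: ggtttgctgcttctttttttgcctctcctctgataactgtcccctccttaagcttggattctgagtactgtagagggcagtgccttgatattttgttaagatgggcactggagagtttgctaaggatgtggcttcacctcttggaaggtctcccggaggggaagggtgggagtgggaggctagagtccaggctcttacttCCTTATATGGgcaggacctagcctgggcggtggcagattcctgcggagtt
The box begins 161 bases before the start in Myl9 and 50 bases before it in Myl6. Myl3 also had one, 85 bases before its start. The same window held an E-box and 2 M-CAT matches further upstream, at 189, 177 and 149 bases before the start. None of these 3 genes was called. No member window held a MEF2 box, which stood in 2.92% of all windows, and the Myl12b window, like that of Myl4, held none of the motifs.

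The called muscle forms differed in which shRras2 array was the lowest. Set against the pLKO mean, Myl1 stood 4.19, 3.37 and 4.02 higher on shRras2 replicates 4, 5 and 6, and Mylpf stood 3.58, 2.53 and 3.16 higher. On the linear scale that is 18.3-fold, 10.3-fold and 16.2-fold for Myl1, and 11.9-fold, 5.77-fold and 8.95-fold for Mylpf. Replicate 5 was the lowest for both, and it is also the array that kept the most Rras2. Myl4, in contrast, stood 2.08, 1.79 and 1.53 higher, with replicate 5 in the middle. Myl12b stood 0.45, 0.46 and 0.50 higher, so replicate 5 was not set apart there. With 3 shRras2 arrays no relation to the Rras2 level was tested. Among the controls, pLKO replicate 3 was the highest for Myl1 and Mylpf and the lowest for Myl2, Myl4, Myl6b, Myl9, Myl12a and Myl12b.

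**Figure D3:**
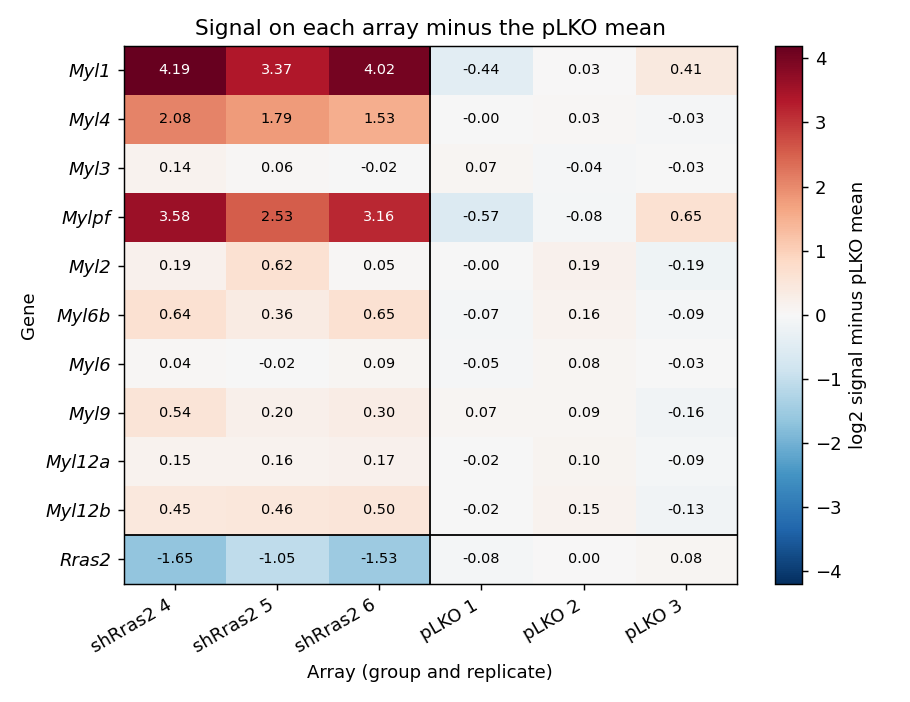
Each cell gives a gene's log2 signal on 1 array minus its pLKO mean, for the 10 light chain genes and Rras2, with shRras2 arrays left of the pLKO arrays. Myl1 and Mylpf are lowest on shRras2 replicate 5 at 3.37 and 2.53, where Rras2 itself is least reduced at -1.05, while Myl4 is lowest on replicate 6 at 1.53.

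The genes most like each called light chain gene were found by the root mean square difference of log2 deviations over the 6 arrays, among genes whose brighter group lay above the negative-control percentile (8360 or 8361 candidates). For Myl1 they were Myh3, the embryonic myosin heavy chain (0.235), Chrdl1, a secreted BMP antagonist (0.390), and Mylpf itself (0.411). For Mylpf they were Mymk, a membrane protein of myoblast fusion (0.242), the skeletal actin gene Acta1 (0.255) and Myh8, the perinatal heavy chain (0.264). The genes nearest to Myl4 were of other kinds, Rgs4, a regulator of G-protein signalling (0.185), Plxdc2, a transmembrane protein gene (0.188), and Perp, a membrane protein gene (0.193). Myl6b was nearest to Cpq (0.046), Bmp4 (0.048) and Tgfbr2 (0.049), and Myl12b to Npc2 (0.051), Atg12 (0.054) and Usp11 (0.059). These distances describe profiles that share the same 6 arrays, and small distances come easily where differences are small. The measure also favours genes with a group difference of like size, such as Rgs4 at 1.805 beside Myl4 at 1.803. The kinds of the nearest genes may therefore follow size.

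The heavy chains that the light chains bind were tested as a list of 14 genes, all measured. Like the light chains, they were listed with earlier results of these data known, so their p-values are not independent support. Of the 14 genes 4 rose, 0 fell and 10 did not pass, with a median difference of 0.17, while 2.99% of all genes were called higher. Myh3 read 10.46, 9.61 and 10.52 on shRras2 replicates 4, 5 and 6, against 6.50, 6.37 and 6.90 on pLKO replicates 1, 2 and 3 (difference 3.61 ± 0.24, limma adjusted p = 0.000223). Myh8 rose by 2.99 ± 0.21 (limma adjusted p = 0.000262). The pLKO values of both lay at background, so the sizes are imprecise. Both had replicate 5 as the lowest shRras2 array, as Myl1 and Mylpf did. Myh1, an adult fast heavy chain, rose by 2.33 ± 0.20 (limma adjusted p = 0.000799), with both group means at background. Myh7, the slow and ventricular heavy chain, rose by 0.72 ± 0.17 (limma adjusted p = 0.0468) with all values at background. Of the 6 fits that leave out 1 array it passed in 1, that without shRras2 replicate 5. The non-muscle heavy chains, which pair with Myl6, Myl12a and Myl12b, did not pass. Myh9 averaged 12.77 ± 0.05 in shRras2 and 12.70 ± 0.02 in pLKO cells (difference 0.07 ± 0.07, limma adjusted p = 0.695). Myh10 averaged 11.44 ± 0.12 in shRras2 and 11.26 ± 0.05 in pLKO cells (difference 0.18 ± 0.09, limma adjusted p = 0.318).

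The enzymes that set light chain phosphorylation were covered by a list of 21 kinases, phosphatase subunits, inhibitors and upstream regulators, of which 18 were measured. With limma 0 of the 18 passed in either direction, 2 had an unadjusted p under 0.05, and the median difference was 0.10. Beside the shares of 5.21% and 19.1% over all genes, these counts of passing genes in a list of 18 do not set the regulators apart. By sign, 15 of the 18 differences were positive, against 9127 of 19505 over all genes, and this lean was not tested. Mylk, the smooth muscle and non-muscle light chain kinase, averaged 7.01 ± 0.17 in shRras2 and 6.81 ± 0.29 in pLKO cells, at background in both (difference 0.20 ± 0.15, limma adjusted p = 0.523). Mylk2, the skeletal muscle kinase that acts on Mylpf, averaged 6.11 ± 0.19 in shRras2 and 5.95 ± 0.11 in pLKO cells, at background in both (difference 0.17 ± 0.11, limma adjusted p = 0.469). Ppp1r12a, the targeting subunit of the light chain phosphatase, was 10.67, 10.73 and 10.60 on the shRras2 arrays, against 10.40, 10.29 and 10.38 on the pLKO arrays. Its groups did not overlap, but the difference of 0.31 ± 0.08 missed the threshold (limma adjusted p = 0.0598), and it passed in 4 of 8 other ways of processing. Rock1, which phosphorylates both the regulatory chains and Ppp1r12a, differed by 0.11 ± 0.10 (limma adjusted p = 0.626).

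**Figure D4:**
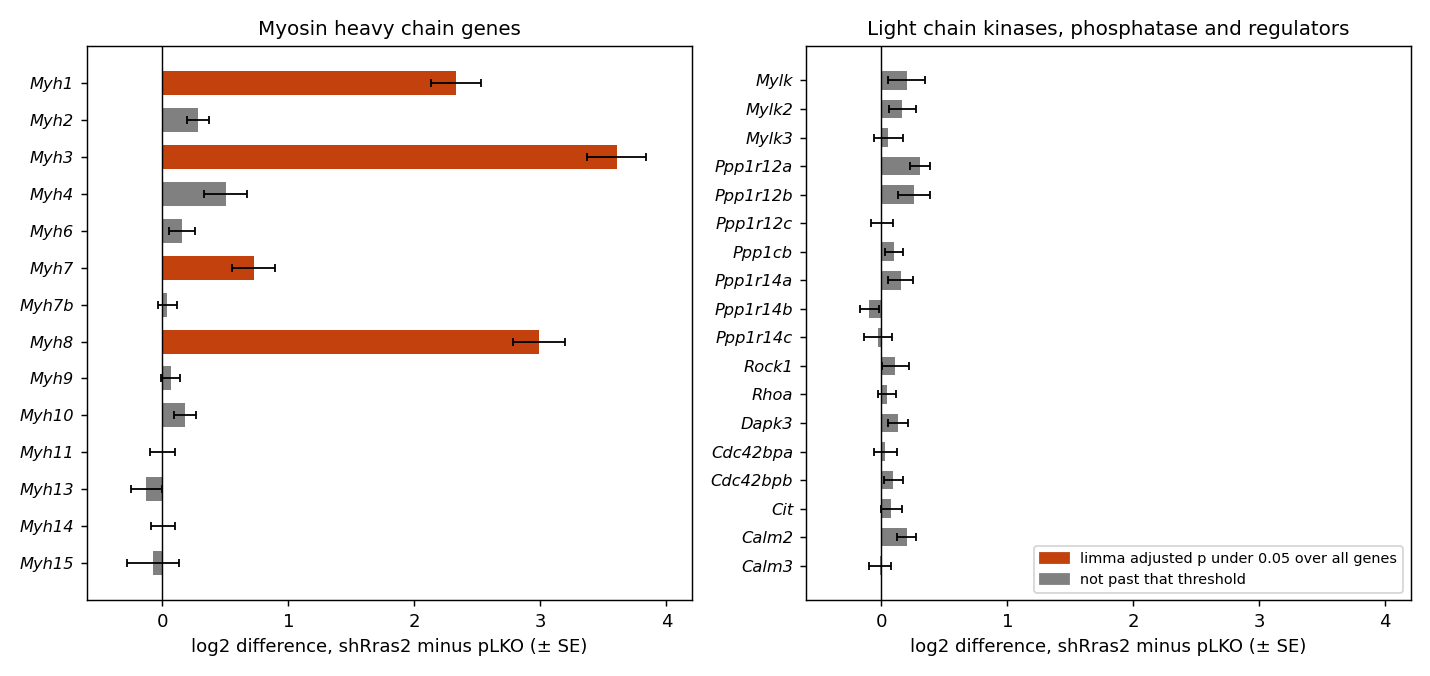
Bars give the log2 difference, shRras2 minus pLKO, with lines for ± SE from limma, for 14 myosin heavy chain genes on the left and 18 light chain regulators on the right, with colour for the call over all genes. The embryonic and perinatal heavy chains Myh3 and Myh8 reach 3.61 and 2.99, while no regulator passes and the largest, Ppp1r12a, reaches 0.31.

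Over all genes 2.99% were called higher, the share to set beside the counts of the marker lists here. These lists were chosen with earlier results of these data known, so their counts and p-values are not independent support. Of 26 skeletal muscle markers other than myosins, 14 rose, 0 fell and 12 did not pass, with a median difference of 0.71 against -0.01 over all genes. The largest were Mymk by 3.00 ± 0.22, Acta1 by 2.78 ± 0.24, the Z-disc gene Myoz2 by 2.64 ± 0.17 and the fast troponin T gene Tnnt3 by 1.87 ± 0.21 (limma adjusted p = 0.000355, 0.000899, 0.000223 and 0.00233). The pLKO means of these 4 lay at background, as did both means of Myoz2, so the sizes are imprecise. The summed linear signal of all 26 markers ranged from 5943 to 9427 in shRras2 and from 3144.5 to 3369 in pLKO arrays. Both group means of 17 of the 26 lay under the negative-control percentile. Among them were Ckm, Myod1 and Ttn, which did not pass. Des, Tnnc2, Chrna1, Neb, Myoz2, Casq1, Pygm and Atp2a1, which rose, were among them too. The other markers that rose had pLKO means under that percentile, so none that rose lay above it in both groups. The part of these markers in the light chain differences was not tested. More cells with muscle RNA and more such RNA per cell cannot be told apart in these bulk samples. Of 9 smooth muscle markers 2 rose, Des, which the skeletal list shares, and Synpo2, and 7 did not pass (median 0.30). The summed linear signal of all 9 was 30457 to 32902 in shRras2 and 26835 to 29583 in pLKO arrays. That sum rests mostly on Acta2, Tagln and Actg2, which did not pass. They averaged 13.86, 13.00 and 12.43 in shRras2 and 13.81, 12.65 and 12.28 in pLKO cells. Of 9 cardiac markers 2 rose, Actc1 and Tnnt2, both also made by developing skeletal muscle (median -0.02). The summed linear signal of all 9 cardiac markers ranged from 1390 to 1514 in shRras2 and from 972 to 1058 in pLKO arrays. Nppa, Nppb, Tnni3, Ryr2, Myh6, Pln and Nkx2-5 were at background in both groups. Among fibroblast markers Col3a1, Pdgfrb and Dcn rose and 6 did not pass (median 0.19). With limma 0 of 5 myoblast and satellite cell markers passed, 0 at an unadjusted p under 0.05. The same count was 0 of 5 for leukocyte markers (1 unadjusted), 0 of 5 for endothelial markers (2 unadjusted) and 0 of 6 for epithelial markers (0 unadjusted), and all of these last 16 had both means below the negative-control percentile. With 5 or 6 genes a list, these counts are not set apart from the 5.21% and 19.1% over all genes.

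The calls of Myl1, Mylpf and Myl4 held in all 6 fits that left out 1 array, with differences of 3.64 to 4.11, 2.80 to 3.42 and 1.66 to 1.94. Those of Myl6b and Myl12b held in 2 of the 6 and were lost without pLKO replicate 1, pLKO replicate 3, shRras2 replicate 4 or shRras2 replicate 6, where 3 of the 10 genes were called.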

How the data were processed

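Expression was measured on 6 arrays, 3 of shRras2 and 3 of pLKO cells. The deposited table gives a log2 RMA signal for each probe set; the submitters' processing notes name RMA and R 3.6.3. Package version and filters: not given in the sources used here. Groups and replicate numbers come from the sample titles. Of 22206 transcript probe sets 19572 carry 1 gene symbol in the platform annotation, 0 several and 2634 none, and for 55 genes with more than 1 the brightest was kept, leaving 19505 genes. All 19572 Entrez identifiers were found in RefSeq's gene table (GRCm38.p6). Each gene was fitted with limma 3.58.1 in R 4.3.3 (lmFit, then eBayes; two-sided; group as the only term), p-values were adjusted by Benjamini-Hochberg over the 19505 genes, and the threshold was 0.05. The fit was tested on simulated data. Precision is limited by the 6 arrays, with a median SE of 0.096.

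The light chain genes, the lists and the tests were chosen with earlier results of these data known. Genes named outside the list are Rras2, Myl7, Myl10, up to 4 called genes per direction of the regulator, heavy chain and skeletal muscle lists, 9 regulators and heavy chains whatever their values, and the 3 nearest genes of each called light chain gene. Marker genes named as at background, as shared between lists or as the called members of short lists were added after their values were seen. Alternatives were a second quantile normalization, median centring, cyclic loess, leaving out the dimmest 30% of genes, averaging probe sets, testing every named probe set, eBayes with trend and robust settings, array weights and leaving out each array. Promoter windows come from RefSeq (GRCm38.p6).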

Additional observations from a re-analysis of the deposited data

How the results depend on the processing

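The number of light chain genes called higher was 5 in every alternative that kept all arrays except eBayes with trend and robust settings, which gave 6 by adding Myl9, and it ranged from 3 to 5 when 1 array was left out; none was called lower in any of them. Over all genes, 584 were higher and 433 lower. Median centring gave 514 higher and 595 lower, with a median difference of -0.05, and the trend and robust settings gave 965 higher and 943 lower. Leaving out 1 array gave 280 to 684 higher and 112 to 452 lower. Among the light chain regulators 0 passed in the reported fit. The count was 1 higher, Ppp1r12a, with a second quantile normalization, with cyclic loess and without the dimmest 30% of genes. It was 2 with the trend and robust settings, and 0 in each fit without 1 array. Heavy chains called higher numbered 3 to 5 and skeletal markers 11 to 19 without 1 array. Rras2 passed under every alternative, at -1.59 to -1.29. Myl2 and Myh7 are among the dimmest 30% of genes and have no value there. No paired analysis was possible because the groups share no replicate number. Signals near the negative controls limit the sizes given for Myl1, Mylpf, Myl6b, Myl2 and Myl3, and for Myh3, Myh8, Myh1, Myh7, Mymk, Acta1, Myoz2 and Tnnt3. The controls are numbered 1 to 3 and the shRras2 samples 4 to 6, so group and any batch along these numbers cannot be told apart.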

Other observations

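Pax7 and Pax3, transcription factors of muscle stem and progenitor cells, lay above the negative-control percentile on every array, named here after their values were seen. The other 3 of the 5 myoblast and satellite cell markers, Myf5, Cdh15 and Msc, had both group means below that percentile. Pax7 averaged 9.38 in shRras2 and 9.37 in pLKO cells, and Pax3 averaged 9.81 in shRras2 and 9.74 in pLKO cells. Their differences were 0.01 ± 0.08 and 0.06 ± 0.08 and did not pass (limma adjusted p = 0.953 and 0.728). Among the controls, pLKO replicate 3 was the highest array for Myl1, Mylpf, Myh3, Myh8, Myh1, Myh7, Mymk, Acta1 and Tnnt3. It was not the highest for Myl4 or Myoz2. Apart from those of Myl4, all pLKO values of these genes lay under the negative-control percentile, so this is an order within background.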
